A study of Mus musculus with 7 samples.

Results

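The genes described here build the shape and the contacts of a neuron: 32 genes of the neuronal cytoskeleton, of cell adhesion and the growth cone, of the synapse, and of neuronal RNA processing, out of 20294 genes in the deposited table. They were taken by name from the table's RefSeq transcripts. All 32 were found. They comprise 3 tubulins (Tubb3, Tuba1a, Tubb2b), 4 microtubule-associated proteins (Dcx, Map1b, Map2, Mapt), 4 stathmins (Stmn1 to Stmn4), 4 collapsin response mediators (Crmp1, Dpysl2, Dpysl3, Dpysl5), 4 intermediate filament proteins (Nefl, Nefm, Ina, Prph), 5 adhesion, growth cone and membrane genes (Ncam1, Gap43, Gpm6a, Rtn1, Tagln3), 3 genes of synaptic vesicles and their release (Syp, Syt1, Snap25) and 5 neuronal RNA-binding or splicing genes (Elavl3, Elavl4, Rbfox3, Celf3, Srrm4).

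The messenger RNA came from mouse embryonic stem cells of the E14 line. They were kept in 2i, whose kinase inhibitors maintain the naive pluripotent state. All libraries, the 0 h one included, came from cells with a Brn2-RFP cassette under GAVPO, a light-switched transcription factor. Brn2 is the POU-domain factor that the table lists as Pou3f2. Cells were lit by an LED at 300 µW for 0, 2, 4, 6, 14, 24 or 48 h, and each time is represented by 1 library, 7 in all, so no time has a replicate.

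A neuron extends its axon and dendrites along bundles of microtubules. Tubulins form these microtubules, doublecortin and the MAP proteins bind and bundle them, and stathmins bind free tubulin. Collapsin response mediators link guidance signals to the cytoskeleton at the growth cone, and neurofilament proteins fill the mature axon. Synaptic vesicle proteins and the release machinery are made before and during synapse formation, and RNA-binding proteins of the Elavl, Celf, Rbfox and Srrm4 kind shape neuronal transcripts. Several of these genes, among them the tubulins, Stmn1 and Map1b, are also active in dividing cells.

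The deposited values are per kilobase of the whole genomic span of a transcript, introns included, so a long gene reads low. The reads behind each value could be recovered, and the reads of a gene proved to be divided between its listed transcripts, so levels are given here as RPM, reads per M (mega) reads of the library, summed over all transcripts of a gene. The libraries held 14.9, 7.61, 7.06, 13.7, 9.10, 9.95 and 16.1 M reads at 0, 2, 4, 6, 14, 24 and 48 h. Lists of 7 values below follow this order of time. Ratios of 2 libraries carry a 95% Clopper-Pearson interval that covers counting error only, and no ratio was tested. The level of the induced gene was not ordered by the labelled time: the deposited value of Pou3f2 was 77.0, 36.9, 47.3, 96.2, 119, 41.3 and 7.19. The label of stem cells was checked against pluripotency markers, which were abundant throughout. The summed level of 8 such genes was 4853 RPM at 48 h and 4954 RPM at 0 h, within a range of 4196 to 6719 RPM over all libraries. Within this sum Pou5f1 (1735 RPM at 48 h, 1101 RPM at 0 h), Sox2, Esrrb and Tfcp2l1 were higher at 48 h. Dppa5a (553 RPM at 48 h, 1211 RPM at 0 h), Zfp42, Nanog and Klf4 were lower.

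The upstream sequences of 5 genes are shown: Crmp1 and Prph as the genes that rose in both fits, Ina and Syt1 as genes that rose on reads and whose windows hold an E-box, and Gpm6a as the gene with a POU octamer. RefSeq promoter windows (GRCm38.p6, 250 bases before to 50 after a start site) were matched by symbol for 20 of the 32 genes, with 35 windows. The 250 bases before the start site are printed 5′ to 3′ for Crmp1 (chr5:37241808-37242057, plus strand), Prph (chr15:99054924-99055173, plus strand), Ina (chr19:47014431-47014680, plus strand), Syt1 (chr10:109009112-109009361, minus strand) and Gpm6a (chr8:54779184-54779433, plus strand). Capitals mark TATAAA in Prph, the E-box CAGCTG in Ina and Syt1, and the POU octamer ATGCAAAT in Gpm6a, where it lies on the other strand.
Crmp1: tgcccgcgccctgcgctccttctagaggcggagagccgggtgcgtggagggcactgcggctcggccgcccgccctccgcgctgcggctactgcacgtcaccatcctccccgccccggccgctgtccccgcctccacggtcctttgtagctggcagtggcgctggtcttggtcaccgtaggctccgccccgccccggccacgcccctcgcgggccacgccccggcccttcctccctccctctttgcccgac
Prph: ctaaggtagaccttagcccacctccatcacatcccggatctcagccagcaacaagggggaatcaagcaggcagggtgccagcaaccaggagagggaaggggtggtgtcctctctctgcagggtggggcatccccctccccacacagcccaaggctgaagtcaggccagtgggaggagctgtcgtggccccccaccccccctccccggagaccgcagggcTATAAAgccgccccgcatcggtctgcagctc
Ina: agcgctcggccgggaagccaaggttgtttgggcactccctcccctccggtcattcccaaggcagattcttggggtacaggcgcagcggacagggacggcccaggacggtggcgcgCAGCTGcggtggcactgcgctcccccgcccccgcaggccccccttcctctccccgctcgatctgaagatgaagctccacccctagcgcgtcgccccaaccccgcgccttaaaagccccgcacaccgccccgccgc
Syt1: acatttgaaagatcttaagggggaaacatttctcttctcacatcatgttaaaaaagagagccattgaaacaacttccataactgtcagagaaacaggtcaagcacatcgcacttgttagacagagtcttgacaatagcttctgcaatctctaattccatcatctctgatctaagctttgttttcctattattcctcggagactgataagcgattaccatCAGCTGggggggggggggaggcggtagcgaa
Gpm6a: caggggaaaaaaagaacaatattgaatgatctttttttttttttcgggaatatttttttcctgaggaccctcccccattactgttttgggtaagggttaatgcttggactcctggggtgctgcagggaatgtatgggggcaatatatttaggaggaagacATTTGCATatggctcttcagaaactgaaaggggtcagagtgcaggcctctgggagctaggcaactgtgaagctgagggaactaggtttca

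The printed Crmp1 window had no match to any motif searched, a GC content of 77.0% and 41 CpG dinucleotides, and a second window of the gene had 61.0% and 20. The printed Syt1 window had 44.0% and 6, and its second window had 56.7% and 8, with no match. A second Gpm6a window, not printed, had 36.0% and the motif TATAAA. Over the 35 windows the median GC content was 58.7%, against 52.7% over all 32851 mouse windows. TATAAA began 31 bases before the start site of Prph, and CAGCTG began 135 bases before that of Ina and 31 bases before that of Syt1. Each motif was searched on both strands. CAGCTG, an E-box that proneural factors bind, was found in 8 of 35 windows and in 16.3% of all windows, and in 5 of the 20 genes against 18.3% of all genes with windows. CAGATG, another E-box, was found in 10 of 35 windows and in 17.2% of all, and in 6 of the 20 genes against 19.2% of all. TATAAA was found in 8 of 35 windows and in 13.6% of all, and in 6 of the 20 genes against 15.7% of all. Windows of 1 gene can overlap and share a match. The octamer ATGCAAAT, which POU factors bind, was found in 1 window, that of Gpm6a, and in 1.74% of all. Neither ATGCAT (5.04% of all windows) nor the core of RE1, the element that the repressor REST binds (0.0365% of all), was found in the 35 windows.

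Across the group, levels were highest at 48 h. Together the 32 genes held 1605, 2407, 2353, 2311, 2836, 2758 and 4914 RPM over the time course. Without Tuba1a, Tubb2b and Stmn1, the 3 with the most reads at 0 h, the sum was 406, 708, 736, 646, 756, 886 and 2006 RPM. Of the 30 genes with at least 20 reads in the 48 h and 0 h libraries together, 26 were at least 2-fold higher at 48 h than at 0 h, and 0 were at least 2-fold lower. Among all 14254 genes with as many reads, 17.4% were at least 2-fold higher and 16.6% at least 2-fold lower. The median log2 ratio of 48 h over 0 h was 2.99 in the 30 genes and -0.04 in all genes. Because both libraries count towards the 20 reads, a gene with few reads at 0 h could enter through its 48 h reads. Of the 26, Syp, Syt1, Gap43, Nefm, Snap25, Tagln3, Dcx, Celf3 and Elavl4 had fewer than 20 reads at 0 h. A gene equally low in both libraries could be left out, so the 26 and the median lean towards genes high at 48 h. In 25 of 31 genes with at least 20 reads over the 7 libraries the 48 h library was the highest of all, as it was in 24.6% of all genes. Since these are bulk libraries, more cells of a neuronal type and more of these RNAs per cell cannot be told apart.

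**Figure D1:**
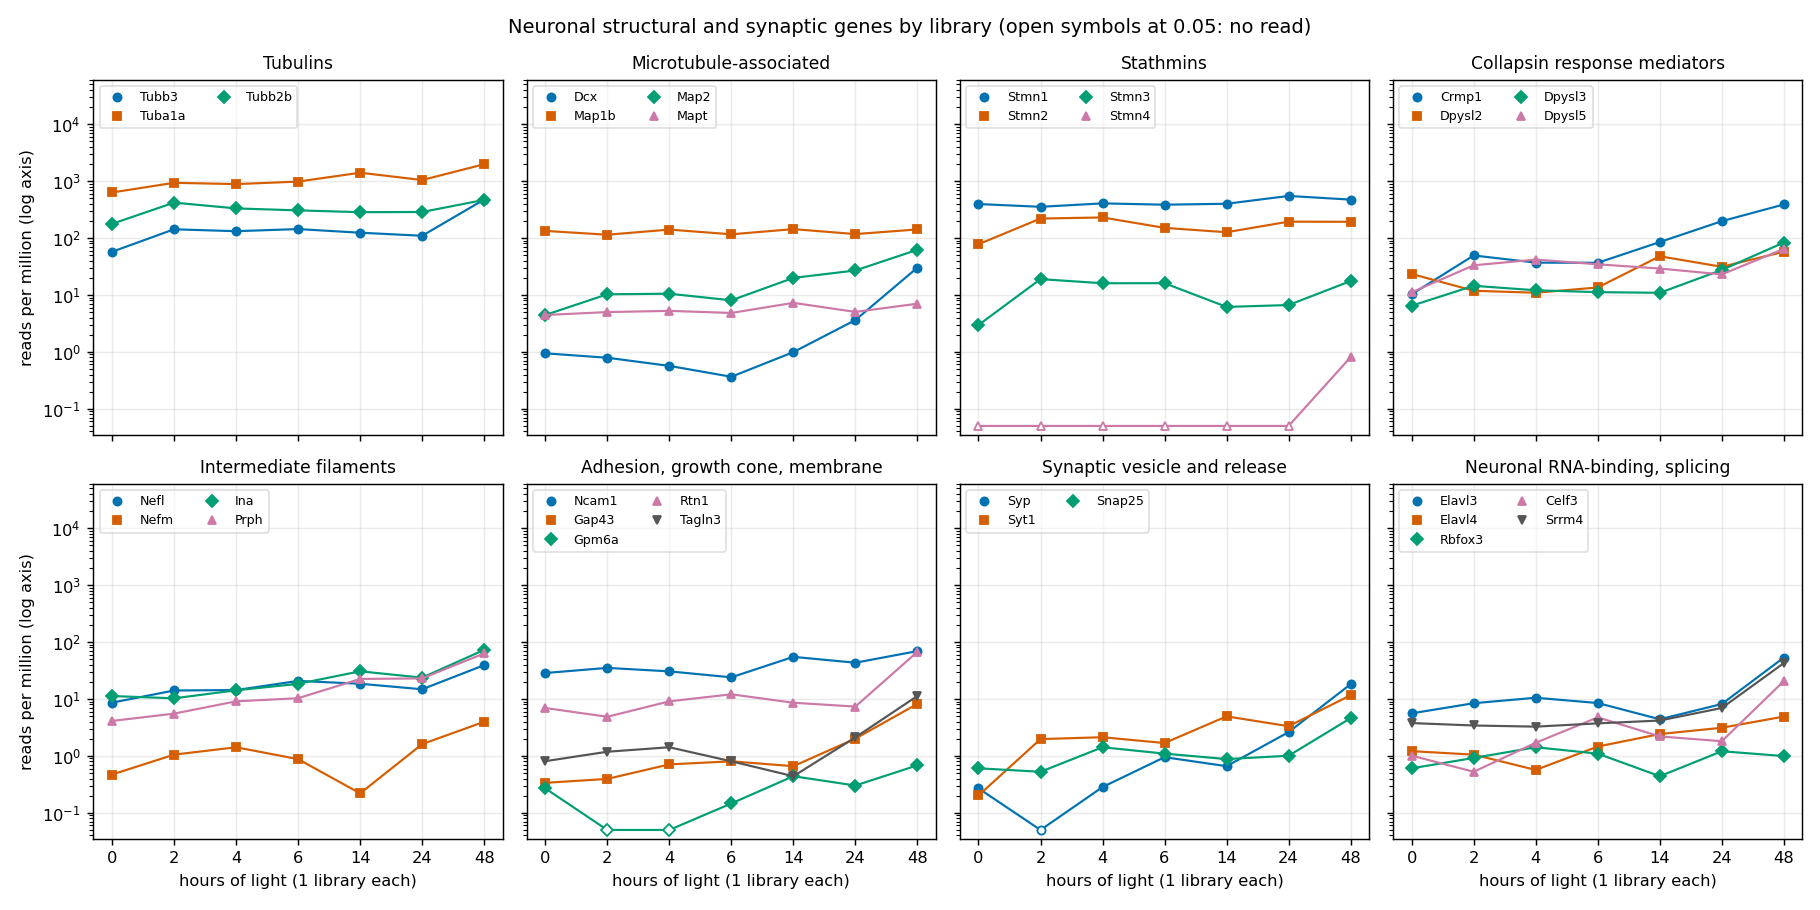
Level of each of the 32 genes in each of the 7 libraries, in RPM on a log axis, against hours of light at equal spacing, with 1 panel for each role. Points are single libraries, and open symbols at the bottom mark libraries with no read of the gene. Most lines end highest at 48 h, while Map1b, Mapt and Stmn1 stay nearly level. Rbfox3 moves between 0.439 and 1.42 RPM on few reads.

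The trend with time was tested over all genes with 2 fits, each with Benjamini-Hochberg adjustment and a call at an adjusted p under 0.05. The first used limma on log2 of the deposited value plus 1. In that fit 11 of the 32 genes reached the required mean value of 1, and 2 of them rose, Crmp1 and Prph, against 0.296% of 6411 genes. None of the 11 fell, against 0.0624% of all. The second, limma-voom on recovered reads, was chosen after seeing the data. It covered 30 of the 32 genes, leaving out Stmn4 and Gpm6a, and 10 of them rose, against 2.44% of 13740 genes. None of the 30 fell, against 0.808% of all. The 10 were Crmp1, Prph, Map2, Syt1, Syp, Ina, Gap43, Dpysl3, Tuba1a and Dcx. All 30 fitted changes were above 0, with a median log2 change from 0 to 48 h of 2.48, against -0.05 over all genes. Of the 30, 22 had an unadjusted p under 0.05, against 3244 of all genes. These calls lean on the last library: without the 48 h library Crmp1 was the only gene of the group to rise (adjusted p = 0.049 by limma-voom), and 4 of all genes were called. Without the 4 h library 6 of the group rose. With the GC trend of each library removed from the reads, 10 rose again, against 1.94% of all genes, with Elavl4 in place of Dcx. In that fit 0 fell, against 0.684%. Elavl4 and Tuba1a lay just under the threshold there (adjusted p = 0.04994 and 0.04995 by limma-voom).

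**Figure D2:**
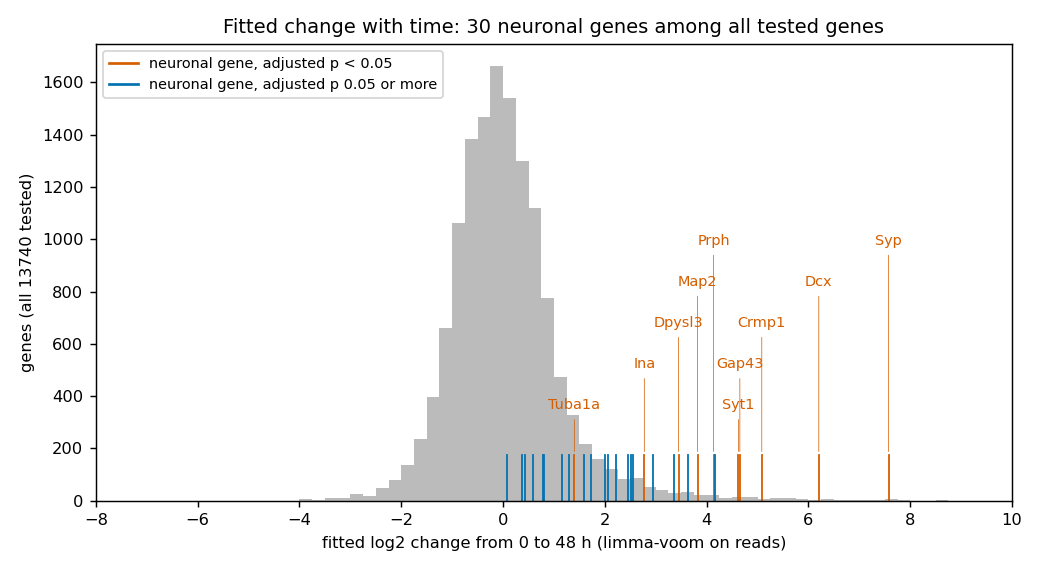
Fitted log2 change from 0 to 48 h in the limma-voom fit on reads, on the horizontal axis, with the number of all 13740 tested genes in each bin as grey bars. Vertical ticks mark the 30 tested neuronal genes, and the 10 that rose are named. Every tick lies to the right of 0, from 0.08 for Map1b to 7.57 for Syp.

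Of the 4 collapsin response mediators, Crmp1 and Dpysl3 rose on reads, and Crmp1 had the lowest adjusted p of the 32 genes there. Crmp1, a growth cone protein that acts downstream of semaphorin, stood at 10.3, 49.3, 36.9, 36.7, 84.7, 197 and 387 RPM, from 153 reads at 0 h and 6240 at 48 h. It was lowest at 0 h, lay between 36.7 and 49.3 RPM from 2 to 6 h, and was higher in each library from 14 h on. The level at 48 h was 37.6-fold that at 0 h (interval 32 to 44.5). Crmp1 rose in both fits, by a log2 change of 2.11 ± 0.35 (SE) on deposited values (adjusted p = 0.041 by limma) and of 5.08 ± 0.52 on reads (adjusted p = 0.002 by limma-voom). The deposited value itself was 0.109, 0.566, 0.413, 0.403, 0.930, 2.19 and 4.29, so the first fit, with 1 added before the log, understates its change. On values the call was lost without the 2, 4 or 24 h library (adjusted p = 0.060, 0.071 and 0.053 by limma) or with the GC trend of each library removed (adjusted p = 0.086), and without the 48 h library the gene missed the required mean. A stretch of 6.05% of Crmp1 lies within Evc, a gene on the opposite strand whose own level was 7.01 RPM at 48 h and 1.75 RPM at 0 h.

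Dpysl3, also called CRMP4, stood at 6.46, 14.4, 12.1, 11.2, 10.9, 27.4 and 83.1 RPM. It was lowest at 0 h, lay between 10.9 and 14.4 RPM from 2 to 14 h, and was highest at 48 h, 12.9-fold the 0 h level. It rose in the fit on reads (log2 change 3.45 ± 0.71, adjusted p = 0.029 by limma-voom), though not without the 4 h library (adjusted p = 0.058) or the 48 h library (adjusted p = 0.499). Dpysl5, or CRMP5, had an earlier plateau, at 11.1, 33.1, 41.7, 34.5, 29.0, 22.9 and 64.1 RPM. The level at 2 h was already 2.98-fold that at 0 h (interval 2.44 to 3.65), and the trend did not pass (adjusted p = 0.128 by limma-voom). Dpysl2, or CRMP2, which binds tubulin dimers, was lower at 2, 4 and 6 h than at 0 h, with 23.3, 11.8, 10.9, 13.5, 47.7, 31.2 and 57.2 RPM. Its 2 h library held 0.508-fold the 0 h level (interval 0.398 to 0.642) and its 48 h library 2.46-fold, and it did not pass (adjusted p = 0.111 by limma-voom).

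Of the 3 tubulins, Tuba1a rose on reads. Tubb3, the beta-tubulin that marks neurons, stood at 57.2, 142, 131, 143, 124, 109 and 472 RPM, from 850 reads at 0 h and 7614 at 48 h. It held a plateau from 2 to 24 h and then a single high library, 4.33-fold the 24 h level (interval 4.06 to 4.62) and 8.26-fold the 0 h level (7.70 to 8.88). The trend did not pass on values (1.85 ± 0.57, adjusted p = 0.128 by limma) or on reads (adjusted p = 0.076 by limma-voom). Tuba1a, an alpha-tubulin of growing neurons, stood at 629, 930, 882, 976, 1398, 1040 and 1970 RPM, lowest at 0 h and highest at 48 h. Its log2 change on reads was 1.40 ± 0.30 (adjusted p = 0.031 by limma-voom), and on deposited values 1.38 ± 0.31 (adjusted p = 0.072 by limma). The call on reads was lost without the 0 h library (adjusted p = 0.107), the 4 h library (adjusted p = 0.064) or the 48 h library (adjusted p = 0.475). With the GC trend of each library removed it passed narrowly on summed reads (adjusted p = 0.04995 by limma-voom). On reads of 1 row per gene it then did not (adjusted p = 0.051). By GENCODE, Tubb3 lies wholly within Gm20388, and 96.1% of Tuba1a lies within Gm49450, both on the same strand. The part of these annotations in the reads was not tested.

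Tubb2b, a beta-tubulin of neuronal migration, stood at 177, 417, 330, 305, 284, 286 and 466 RPM, and its 2 h library was nearly as high as its 48 h one. It did not pass (adjusted p = 0.234 by limma-voom). Both Tuba1a and Tubb2b share sequence with widely expressed relatives: 52.0% of the 50-base stretches of the Tuba1a transcript also occur in Tuba1b or Tuba1c, and 33.4% of those of Tubb2b in Tubb2a, Tubb4a or Tubb5. Reads of these relatives cannot be told apart there. Tuba1b stood at 1586, 2490, 2074, 2486, 3103, 2320 and 3096 RPM, a course close to that of Tuba1a up to 24 h. Tubb5 stood at 1702, 3539, 2787, 2646, 3359, 3285 and 4077 RPM, and neither relative passed on reads (adjusted p = 0.115 for Tuba1b and 0.086 for Tubb5 by limma-voom).

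Among microtubule-associated genes, 2 of 4 rose on reads. Map2, which stabilises microtubules of dendrites, stood at 4.44, 10.2, 10.5, 8.03, 19.9, 26.8 and 62.0 RPM. Its levels from 2 to 6 h lay close together, and those at 14, 24 and 48 h were each above all earlier ones. It was 14.0-fold higher at 48 h than at 0 h (interval 10.9 to 18.2) and rose by a log2 change of 3.82 ± 0.51 (adjusted p = 0.006 by limma-voom). The call held without any single library other than the 48 h one (adjusted p = 0.148 without it).

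Dcx, doublecortin, which marks migrating young neurons, was counted 14, 6, 4, 5, 9, 36 and 485 times. From 0 to 14 h the gene was near the limit of detection, and most of its reads came from the last library. The 48 h level, 30.1 RPM, was 32-fold the 0 h level of 0.941 RPM (interval 18.9 to 58.9). Dcx rose on reads (6.20 ± 1.47, adjusted p = 0.044 by limma-voom), but not with the GC trend of each library removed (adjusted p = 0.051) or without the 2, 4 or 6 h library (adjusted p = 0.065, 0.092 and 0.052). Without the 0, 24 or 48 h library it missed the read minimum. Map1b, an early microtubule protein of axons, lay between 114 and 143 RPM, at 133, 114, 140, 116, 143, 117 and 141 RPM, with a 48 h to 0 h ratio of 1.06 (interval 0.999 to 1.13). Mapt, which encodes tau, had 66, 38, 37, 66, 66, 50 and 113 reads, or 7.01 RPM at 48 h and 4.44 RPM at 0 h. Its ratio of 1.58 (interval 1.16 to 2.17) lay below the 2-fold mark, and neither Map1b (adjusted p = 0.881) nor Mapt (adjusted p = 0.447) passed by limma-voom.

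None of the stathmins passed a test. Stmn1, present in most dividing cells, stood at 394, 352, 404, 384, 398, 546 and 471 RPM, highest at 24 h. Stmn2, or SCG10, of growth cones, stood at 77.5, 219, 229, 150, 126, 193 and 192 RPM. It was lowest at 0 h and highest at 4 h, and its 48 h level was 0.994-fold its 24 h level (interval 0.939 to 1.05). Stmn3 had 2 high phases, at 2.96, 18.9, 16.0, 16.1, 6.15, 6.63 and 17.5 RPM. It was 6.39-fold higher at 2 h than at 0 h (interval 4.53 to 9.18), stood at 0.383-fold its 6 h level at 14 h (interval 0.280 to 0.516), and was high again at 48 h. Stmn4 was not counted in any library before 48 h and had 13 reads there. With 3 reads per library as the most that a count of 0 allows, the bound on its ratio of 48 h over 0 h was 4.00. That bound leaves out the counting error of the 13 reads. The Clopper-Pearson interval of 13 against 0 reads, which does not use the 3 reads, had a lower limit of 2.81. Its 6 empty libraries allow at most 3 reads each, so its presence there was not detectable at this depth.

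The 4 intermediate filament genes of the group were each highest at 48 h, and 2 of them rose on reads. Prph, peripherin, a filament of peripheral and some central neurons, stood at 4.10, 5.52, 9.07, 10.3, 22.4, 22.9 and 63.1 RPM. Each library was higher than the one before, though 14 and 24 h were nearly equal and the interval of 2 h over 0 h included 1 (0.886 to 2.025). On the deposited value used in the first fit, Prph was lower at 24 h (1.95) than at 14 h (2.63). It was 15.4-fold higher at 48 h than at 0 h (interval 11.9 to 20.3) and rose in both fits, by 2.12 ± 0.34 on values (adjusted p = 0.036 by limma) and 4.14 ± 0.47 on reads (adjusted p = 0.005 by limma-voom). On values the call was lost without the 2, 4, 14, 24 or 48 h library (adjusted p = 0.063, 0.066, 0.054, 0.053 and 0.289 by limma) or once the GC trend was taken out (adjusted p = 0.078), and on reads without the 48 h library (adjusted p = 0.077). Ina, alpha-internexin, the first neurofilament protein of developing central neurons, stood at 11.2, 10.3, 14.2, 18.4, 30.5, 23.6 and 72.7 RPM. Levels at 14, 24 and 48 h lay above all earlier ones, and it rose on reads (2.78 ± 0.52, adjusted p = 0.020 by limma-voom), though not without the 48 h library (adjusted p = 0.401). On values it did not pass (1.77 ± 0.37, adjusted p = 0.062 by limma). A stretch of 4.29% of Ina, and 14.1% of its exon bases, lies within Nt5c2 on the opposite strand, and Nt5c2 stood at 40.6 RPM at 48 h and 39.0 RPM at 0 h.

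Nefl, the light neurofilament subunit, stood at 8.61, 14.1, 14.3, 20.7, 18.5, 14.8 and 39.2 RPM, lowest at 0 h and highest at 48 h (4.56-fold). Nefm, the medium subunit, was counted 7, 8, 10, 12, 2, 16 and 64 times, and was 8.43-fold higher at 48 h than at 0 h (interval 3.87 to 21.8). Neither Nefl (adjusted p = 0.070) nor Nefm (adjusted p = 0.244) passed by limma-voom. By GENCODE, Nefl lies wholly within a long annotation of Nefm on the opposite strand, and their exons share no base.

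Synaptic genes had few reads, and Syp and Syt1 had the highest ratios of the 32 genes. Syp, synaptophysin, a membrane protein of synaptic vesicles, was counted 4, 0, 2, 13, 6, 26 and 292 times. Most of its reads lay at 48 h, where it reached 18.1 RPM, 67.3-fold the 0 h level (interval 26.0 to 249) and 6.93-fold the 24 h level (4.63 to 10.8). Syt1, synaptotagmin, the calcium sensor of release, was counted 3, 15, 15, 23, 45, 33 and 187 times. Its 3 reads at 0 h leave the 57.5-fold ratio of 48 h over 0 h with an interval of 19.4 to 281. The 6 later libraries each held 1.68 RPM or more, against 0.202 RPM at 0 h. Both rose on reads, Syp by 7.57 ± 1.30 (adjusted p = 0.014) and Syt1 by 4.62 ± 0.75 (adjusted p = 0.010 by limma-voom). The Syt1 call was lost without the 48 h library (adjusted p = 0.273), and Syp missed the read minimum without the 6, 24 or 48 h library. Snap25, a SNARE protein of vesicle fusion, was counted 9, 4, 10, 15, 8, 10 and 74 times, so that a single library stood out. Its ratio was 7.59, and the trend test gave an adjusted p of 0.118 by limma-voom.

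Of the adhesion, growth cone and membrane genes, Gap43 rose. Gap43, a phosphoprotein of growth cones, was counted 5, 3, 5, 11, 6, 20 and 132 times, which is 8.19 RPM at 48 h and 0.336 RPM at 0 h. It was 24.4-fold higher at 48 h than at 0 h (interval 10.2 to 76.2) and rose by 4.65 ± 0.93 (adjusted p = 0.027 by limma-voom), but not without the 4 h library (adjusted p = 0.057). Without the 6, 24 or 48 h library it missed the read minimum. Rtn1, a reticulon of the neuronal endoplasmic reticulum, stood at 6.93, 4.86, 9.07, 12.1, 8.57, 7.34 and 67.2 RPM. Its first 6 libraries lay within 4.86 to 12.1 RPM and the 48 h library was 9.15-fold the 24 h one (interval 7.22 to 11.8). Rtn1 did not pass (2.95 ± 0.96, adjusted p = 0.104 by limma-voom).

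Tagln3, a calponin-family protein of neurons, was likewise high at 48 h alone, with 12, 9, 10, 11, 4, 21 and 182 reads and an adjusted p of 0.131 by limma-voom. Ncam1, the neural cell adhesion molecule, was present throughout at 28.5, 35.1, 30.5, 24.0, 54.8, 43.2 and 69.2 RPM, with the libraries from 14 h on above the earlier ones. It was 2.43-fold higher at 48 h than at 0 h, with an adjusted p of 0.102 by limma-voom. Of its 3 transcripts, the one of 2567 bases had 212 reads at 48 h and 127 at 0 h, while the pair of 6050 bases had 441 and 462 reads at 48 h, against 144 and 153 at 0 h. Gpm6a, a membrane glycoprotein of neurites, was counted 4, 0, 0, 2, 4, 3 and 11 times, and its ratio of 2.54 had an interval of 0.752 to 10.9.

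None of the 5 RNA-binding and splicing genes rose on reads, although 3 had ratios above 9. Elavl3, or HuC, an RNA-stabilising protein of neurons, stood at 5.58, 8.41, 10.5, 8.47, 4.39, 8.14 and 53.3 RPM, so that only the 48 h library lay above 10.5 RPM. By GENCODE, 42.3% of Elavl3 lies within Gm49318 on the same strand. Srrm4, which promotes neuronal microexons, stood at 3.77, 3.42, 3.26, 3.72, 4.17, 6.94 and 42.5 RPM, level until 14 h. Celf3, a splicing regulator, was counted 15, 4, 12, 65, 20, 18 and 332 times, with a minor peak at 6 h. A stretch of 14.7% of Celf3 lies within Riiad1 on the opposite strand, which stood at 0.124 RPM at 48 h and 0.202 RPM at 0 h. Their ratios of 48 h over 0 h were 9.55 for Elavl3 (interval 7.62 to 12.1), 11.3 for Srrm4 (8.60 to 15.1) and 20.4 for Celf3 (12.2 to 36.9). The trend tests gave adjusted p = 0.149, 0.060 and 0.074 for Elavl3, Srrm4 and Celf3 by limma-voom.

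Elavl4, or HuD, was counted 18, 8, 4, 20, 22, 31 and 79 times, and was 4.05-fold higher at 48 h than at 0 h. It did not pass (adjusted p = 0.076 by limma-voom), and passed by a narrow margin once the GC trend was taken out (adjusted p = 0.04994). Rbfox3, the NeuN antigen of mature neurons, was counted 9, 7, 10, 15, 4, 12 and 16 times. It was near the limit of detection throughout, at 0.993 RPM at 48 h and 0.605 RPM at 0 h, with a ratio of 1.64 (interval 0.682 to 4.21).

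**Figure D3:**
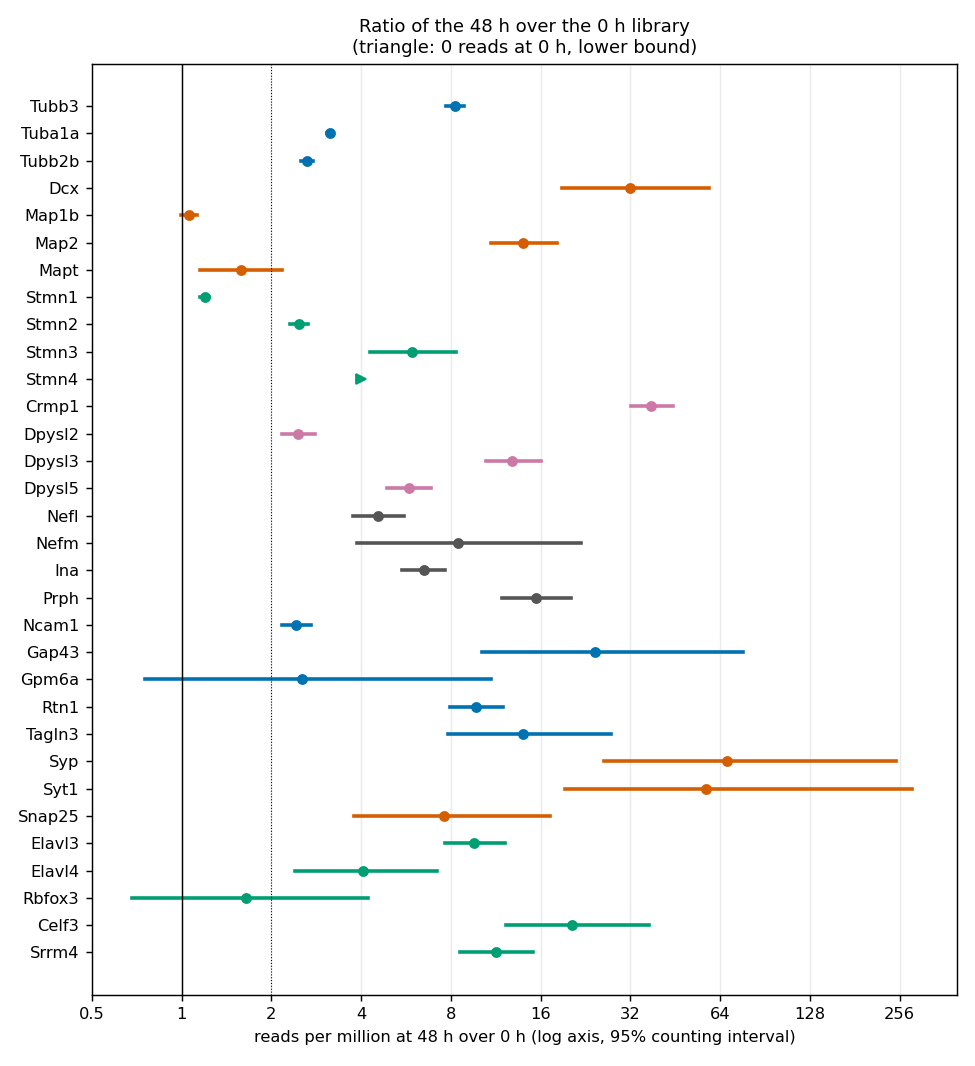
Ratio of RPM at 48 h over 0 h for each of the 32 genes on a log axis, coloured by role, with bars for the 95% counting interval and a dotted line at 2-fold. The triangle for Stmn4 is a bound, with 3 reads put for the 0 counted at 0 h. Points range from 1.06 for Map1b to 67.3 for Syp, and the intervals of Map1b, Gpm6a and Rbfox3 include 1.

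The genes did not follow 1 course. At 2 h, 8 of 23 genes with enough reads were already at least 2-fold higher than at 0 h, namely Tubb3, Tubb2b, Map2, Stmn2, Stmn3, Crmp1, Dpysl3 and Dpysl5, against 4.33% of 13388 genes. The median log2 ratio of 2 h over 0 h was 0.55 in the 23 and -0.19 in all genes. The 0 h library was the lowest of the 7 in 14 of 31 genes, as it was in 13.0% of all genes. The 0 h library alone is the base of these ratios, so any error in its level of a gene enters every ratio of that gene to 0 h.

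Between 6 and 14 h, 6 of 24 genes were at least 2-fold higher at 14 h than at 6 h (Crmp1, Dpysl2, Map2, Prph, Ncam1 and Syt1), against 5.12% of 13563 genes. Stmn3 and Celf3 were at least 2-fold lower, 2 of 24, against 10.6% of all genes. By 24 h, 15 of 29 genes were at least 2-fold higher than at 0 h, against 6.62% of 13634 genes. From 24 to 48 h, 19 of 30 genes were at least 2-fold higher at 48 h, against 14.8% of 13758 genes. None of the 30 were at least 2-fold lower at 48 h than at 24 h, against 7.19% of all genes. The median log2 ratio of 48 h over 24 h was 1.43 in the 30 genes and 0.16 in all genes.

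The weight of these steps differed between genes. Crmp1 had most of its ratio by 24 h, 19.2-fold over 0 h (interval 16.2 to 22.7), and a further 1.96-fold from 24 to 48 h (1.87 to 2.07). Rtn1 had the reverse, 1.06-fold by 24 h (interval 0.774 to 1.44) and 9.15-fold after. Celf3 was 11.4-fold higher at 48 h than at 24 h (interval 7.09 to 19.4), Dcx 8.31-fold (5.92 to 12.0), Elavl3 6.54-fold and Srrm4 6.13-fold. Map2 and Prph had a share of each, at 6.05-fold and 5.59-fold by 24 h and 2.31-fold and 2.75-fold after.

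**Figure D4:**
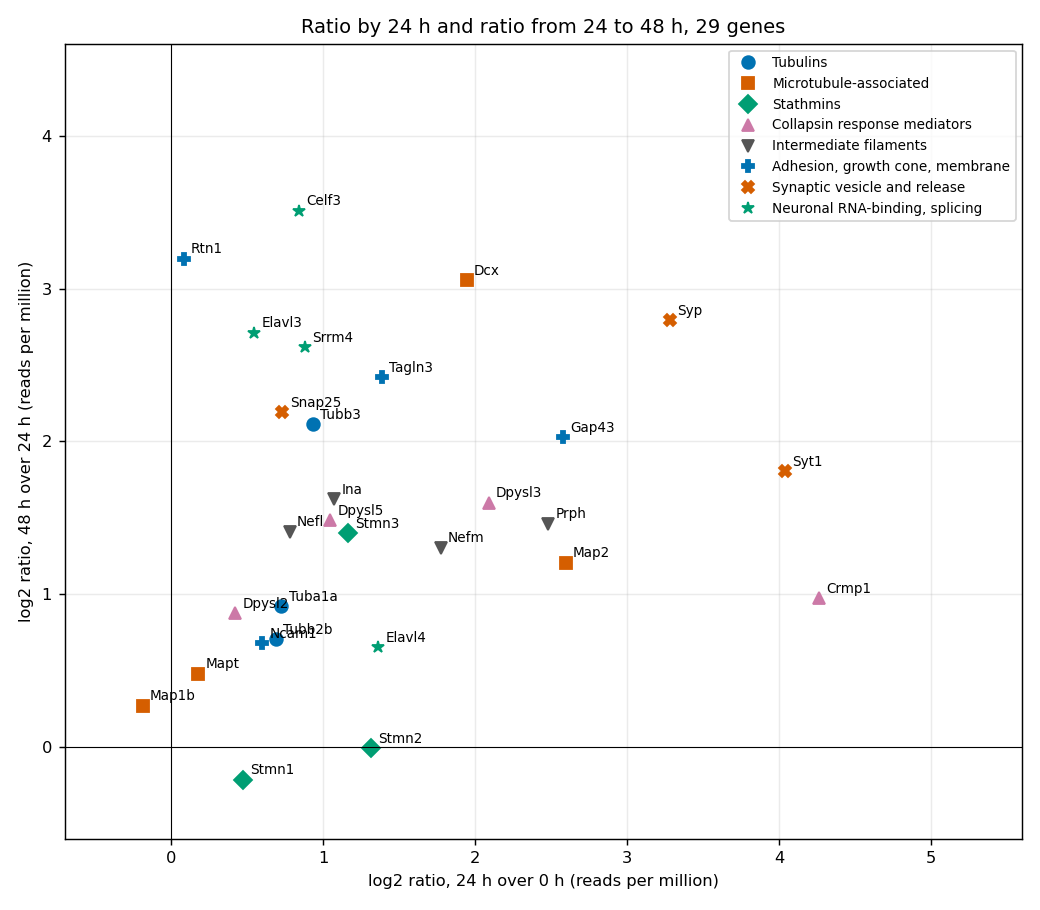
Log2 ratio of RPM at 24 h over 0 h (horizontal) and at 48 h over 24 h (vertical) for 29 genes, with a symbol for each role. Both axes use the 24 h library, so its counting error moves a point along both. Crmp1 and Syt1 lie far to the right, Rtn1 and Celf3 high on the left, and Map1b, Mapt and Stmn1 near the origin.

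Compared per kilobase of transcript, the levels at 48 h spanned a wide range. The summed reads of a gene were divided by the length of its transcript with the highest mean value. That length leaves out introns, and whether reads in introns were counted is not stated. The order of genes of unlike genomic span, such as Syt1 (513 kilobases) and Tuba1a (3.87 kilobases), is therefore uncertain. Tuba1a and Tubb2b also share stretches with their relatives, as given above. Tuba1a had 1093 RPM per kilobase at 48 h and 349 at 0 h, and Stmn1 had 444 at 48 h and 371 at 0 h. Tubb3 followed with 253 at 48 h and 30.6 at 0 h, Tubb2b with 214 at 48 h and 81.0 at 0 h, and Crmp1 with 133 at 48 h and 3.54 at 0 h. On the same scale the synaptic genes were low at 48 h: Syp had 6.99, Syt1 2.44 and Snap25 2.17. Gpm6a, Stmn4 and Rbfox3 were the lowest of the 32 at 48 h, with 0.212, 0.619 and 0.644. The length used for Rbfox3 was 1542 bases, and its other transcripts have 3150 and 2150, so its order with Stmn4 depends on this choice. At least 10 reads were counted for 24, 21, 26, 29, 23, 30 and 32 of the genes in order of time. These numbers are not corrected for the depth of each library, and the same count over all genes was not made.

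Further genes of the same structures, from lists outside the 32, were counted by limma-voom on summed reads, and none of those tested on deposited values passed. Of 23 tested genes of microtubules and axonal transport, 3 rose and 0 fell, where 2.44% of all genes rose and 0.808% fell. Kif1a, a motor that carries synaptic vesicle precursors, stood at 2.89, 3.02, 5.24, 8.83, 26.4, 18.1 and 41.0 RPM and rose by 4.26 ± 0.56 (adjusted p = 0.006 by limma-voom). The other 2 were Dclk1 and Tubb4a, named after their values were seen. With the GC trend of each library removed, Tubb4a lost its call (adjusted p = 0.060 by limma-voom). Nefh, the heavy neurofilament subunit, went the other way, with 40.0 RPM at 0 h and 19.1 RPM at 48 h. Its log2 change of -0.98 ± 0.39 did not pass (adjusted p = 0.158 by limma-voom). After the GC step it was called (adjusted p = 0.047). Of 24 tested adhesion and guidance genes, 6 rose and 0 fell, among them Cadm3, a synaptic adhesion molecule, with 0.740, 0.657, 0.709, 1.17, 1.65, 6.33 and 44.5 RPM (7.27 ± 1.19, adjusted p = 0.010 by limma-voom). Nrcam, a partner of ankyrin at the axon, and Plxna2, a semaphorin receptor, rose as well, at 43.0 and 33.9 RPM at 48 h, against 9.21 and 10.6 RPM at 0 h. Of 24 tested synaptic genes 2 rose, Dlg4 and Sv2a, also named after their values were seen, and of 12 tested neuronal RNA-binding genes 1 rose, Celf4, with 24.3 RPM at 48 h and 3.43 RPM at 0 h. Neither list had a gene that fell. After the same GC step Sv2a (adjusted p = 0.060 by limma-voom) and Celf4 (adjusted p = 0.078) were no longer called, and each of these lists had 1 call.

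Among markers of other cell types, 1 rose with the group. Of 5 tested fibroblast markers out of 10, Col1a2, a chain of type I collagen, rose, at 1.61, 0.394, 0.425, 0.803, 3.19, 31.4 and 77.4 RPM (9.28, adjusted p = 0.008 by limma-voom). Its partner chain Col1a1 had 0.372 RPM at 48 h, Lum 0.186 RPM, and Col3a1 no read there, while Fbln1 had 96.0 RPM. The summed level of the 10 was 190.0 RPM at 48 h and 58.5 RPM at 0 h. Astrocyte markers summed to 25.9 RPM at 48 h and 23.5 RPM at 0 h, and oligodendrocyte markers to 25.7 RPM at 48 h and 21.1 RPM at 0 h, with 0 of 2 tested genes called in each and with Aqp4 and Sox10 at 0 reads at 48 h. Trophoblast markers summed to 88.5 RPM at 48 h and 58.9 RPM at 0 h, and primitive endoderm markers to 8.06 RPM at 48 h and 11.8 RPM at 0 h, with 0 of 4 tested genes called in each. The trophoblast sum was higher at 2 and 4 h than at 48 h, at 116 and 104 RPM. Of the 8 pluripotency markers, Dppa5a fell (adjusted p = 0.044 by limma-voom). The part of other cell types in the levels given above was not tested.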

How the data were processed

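Per the labels' protocols, an RNeasy kit and a Lexogen SENSE kit were used for RNA and libraries. Per the submitters' processing notes, the tool was Bowtie2 and the build mm9. How reads were counted, and on which strand, is not stated in the labels or headers used. The authors' deposited table gives 1 number per transcript and library, with no unit in its header (30673 rows, 3320 of them start site rows at 0). Other normalized values were the closest description: multiplied by genomic span and a library factor, 80.0% to 81.1% of those from 2 to 20 reads came within 0.1 of a whole number, where chance gives 20%. Recovered read numbers are approximate, since spans came from GENCODE on GRCm38. Transcripts were matched to symbols by accession (26245 rows). In 605 pairs of transcripts of 1 gene with the same span, 0 had identical reads and the first held a median 49.6% of them, so reads were summed per gene, a choice made after seeing the data.

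Trends were fitted over the 7 libraries on log2 of hours plus 1 with limma 3.58.1 in R 4.3.3: on log2 of the deposited value plus 1, on the row of highest mean per gene (mean at least 1), and by voom on summed reads (10 or more reads in 3 or more libraries). Both scripts were tested on simulated data. The libraries may be technical units of 1 culture, so p-values measure only their spread around a line. Ratios of 2 libraries used genes with at least 20 reads in both together, so a gene could enter through 1 of them alone. The 32 genes, the other lists and the tests were chosen with earlier results of these data known. Of each other list, up to 5 genes were to be named, those called with 100 or more reads on average, and ubiquitous counterparts of a described member. Others named, some markers among them, were chosen after their values were seen. Alternatives were other normalizations, pseudocounts, filters, time scales and transcript rows, removal of GC trends, and each library left out.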

Additional observations from a re-analysis of the deposited data

How the results depend on the processing

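No paired analysis was possible because each time has 1 library. On deposited values, 23 genes and 2 of the 32 were called. The counts for genes and for the 32 were 18 and 1 with quantile normalization, 43 and 2 with a pseudocount of 0.1, 0 and 0 with a pseudocount of 5 (unadjusted p under 0.05 in 1366 and 6), 0 and 0 without a filter (3078 and 13), 0 and 0 with the GC trend removed (1171 and 6), 55 and 3 on the rank of time, 12 and 0 with the first accession, 405 and 9 on reads of 1 row per gene, and 326 and 8 on those reads with the GC trend removed. With the GC trend removed the adjusted p was 0.086 for Crmp1 and 0.078 for Prph. Leaving out 1 library gave 1 to 79 genes and 0 to 3 of the 32, with 79 genes without the 0 h library, 9 without 2 h, 1 without 4 h, 1 without 24 h and 2 without 48 h. On summed reads, 446 genes and 10 of the 32 were called, with a range of 4 to 854 and 1 to 13: 4 and 1 without the 48 h library, 153 and 6 without 4 h, 854 and 13 without 24 h. Without the 24 h library Dcx, Gap43 and Syp were not among the 27 tested. The median log2 ratio of 48 h over 0 h with 0.1 added to the deposited value was 1.50, 0.64 with 1 added, 0.96 against the mean of 0 to 6 h and 2.81 on RPM, where all 32 genes enter with Stmn4 at its bound. The cause of these shifts was not tested.

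Directions reversed in Map1b, Stmn1, Stmn2, Stmn3, Mapt and Rbfox3, none of which was called in either fit. With 1 library left out, fitted changes ranged from -0.023 to 0.134 on values and -0.048 to 0.242 on reads for Map1b (lowest without 48 h), from -0.26 to 0.73 and -0.30 to 1.07 for Stmn2 (lowest without 0 h), from -0.63 to 0.66 and -0.99 to 1.57 for Stmn3 (lowest without 0 h), and from -0.31 to 0.58 on reads for Rbfox3 (lowest without 0 h). With the GC trend removed they were -0.14 (values) for Stmn3 and -0.40 (reads) for Rbfox3. The log2 ratio was -0.13 for Stmn1 after quantile normalization and -0.53 for Mapt with the GC trend removed. Depth limits Stmn4, Gpm6a, Rbfox3 and Nefm most, with 64 reads or fewer in any library.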

Other observations

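Relatives of the 32 genes, most of them widely expressed, were also tested: 2 of 23 rose and 0 fell by limma-voom on summed reads, where 2.44% of all genes rose and 0.808% fell. Lmna, an intermediate filament protein of the nuclear envelope, stood at 6.79, 6.17, 8.22, 9.20, 17.0, 16.1 and 24.1 RPM at 0, 2, 4, 6, 14, 24 and 48 h and rose by a log2 change of 2.11 (adjusted p = 0.027 by limma-voom), but not with the GC trend removed (adjusted p = 0.114). Synpr, a synaptic vesicle protein of neurons related to synaptophysin, is not a widely expressed relative. It rose as well, with 5.46 RPM at 48 h and 0.538 RPM at 0 h, and was named after its values were seen. Ptbp1, a splicing repressor of non-neuronal cells, stood at 1596 RPM at 48 h and 1047 RPM at 0 h, with an adjusted p of 0.316 by limma-voom. Elavl1, the widely expressed relative of Elavl3 and Elavl4, stood at 216 RPM at 48 h and 177 RPM at 0 h, with an adjusted p of 0.705 by limma-voom. Vim, a filament of progenitors and many other cells, stood at 686 RPM at 48 h and 232 RPM at 0 h, with an adjusted p of 0.168 by limma-voom.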
